A study of Mus musculus with 2 samples.

Results

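Sox5, Sox6 and Sox13 are the 3 genes of the mouse SoxD family. Their p300 peaks were taken from the peak list of 1 p300 ChIP-seq library of the dorsal cerebral wall at embryonic day 14.5. The library came from Swiss Webster embryos, whose cortical hem, hippocampus, other medial structures and choroid plexus had been cut away, and chromatin was precipitated with the anti-p300 antibody C-20. A second library, the input of that chromatin, served the authors as background for peak calling and was not analysed here. A peak was counted for a gene when its midpoint lay in the annotated gene body or within 500 kb of the transcription start site, taken from whichever transcript has the longest coding sequence. This rule gave 22 of the 6629 p300 peaks, of which 10 lay in the window of Sox5, 8 in that of Sox6 and 4 in that of Sox13. All coordinates are on the mm9 assembly, with genes from GENCODE vM1. The list holds positions with no score or read count, so the depth behind each peak is unknown, and there is no replicate. Tests therefore set the number of peaks against the length of sequence in this library. They compare no samples, and their intervals cover counting error only.

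SoxD proteins bind DNA through an HMG box and pair with each other through a coiled coil. They have no known activation domain of their own and act by recruiting or helping other factors, among them the corepressor Ctbp2 and, in cartilage, Sox9. In the neocortex Sox5 is known for its part in the migration and identity of the deep-layer neurons that project below the cortex. Sox6 is known from cortical progenitors and from interneurons that reach the cortex from the ventral telencephalon, and Sox13 is less well described in this tissue. p300 is a histone acetyltransferase that marks active enhancers, and the authors treated the peaks of this list as candidate enhancers. They had filtered out peaks at exons or close to start sites by the UCSC knownGene annotation, which differs from the GENCODE genes used here. A peak near a gene does not show that it acts on that gene.

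For each gene the middle 300 bases of 3 peaks are printed, so that the letters behind the peak maps and motif counts can be read. These were the widest peak of the window, the peak nearest to the start site and the peak with the most copies of the Sox core in its middle. Each runs 5′ to 3′ on the plus strand, and capitals mark the Sox core, ACAAT on either strand. The middle of a peak was used because the list gives no summit. At Sox5, the widest is peak 5491 (chr6:144429103-144429402), the nearest peak 5486 (chr6:144146002-144146301) and the one with most cores peak 5487 (chr6:144200270-144200569). Of these windows, the first had 0 cores, the second 2 and the third 3.
Sox5 peak 5491: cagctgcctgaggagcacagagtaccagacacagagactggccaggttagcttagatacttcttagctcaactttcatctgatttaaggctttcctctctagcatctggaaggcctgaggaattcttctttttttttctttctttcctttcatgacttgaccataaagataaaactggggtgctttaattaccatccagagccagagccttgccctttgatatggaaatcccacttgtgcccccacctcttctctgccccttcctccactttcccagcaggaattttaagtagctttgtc
Sox5 peak 5486: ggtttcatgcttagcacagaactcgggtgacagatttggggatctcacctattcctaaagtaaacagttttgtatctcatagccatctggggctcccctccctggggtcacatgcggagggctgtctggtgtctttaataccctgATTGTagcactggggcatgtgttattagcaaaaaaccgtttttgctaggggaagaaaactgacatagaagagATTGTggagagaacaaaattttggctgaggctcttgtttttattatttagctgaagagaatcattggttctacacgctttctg
Sox5 peak 5487: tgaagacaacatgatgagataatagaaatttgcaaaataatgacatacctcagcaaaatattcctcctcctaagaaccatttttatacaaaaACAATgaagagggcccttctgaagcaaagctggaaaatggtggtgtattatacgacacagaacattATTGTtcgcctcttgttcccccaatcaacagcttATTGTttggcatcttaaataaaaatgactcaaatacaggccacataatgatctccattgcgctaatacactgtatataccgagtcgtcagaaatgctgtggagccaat

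At Sox6, the widest is peak 5699 (chr7:123010202-123010501) with 1 core, the nearest peak 5701 (chr7:123109754-123110053) with 0, and the one printed for most cores peak 5697 (chr7:122789281-122789580) with 2. Peak 5703 also had 2 cores in its middle and is not printed. The middle of peak 5699 had a GC content of 47.3%, that of peak 5701 46.0% and that of peak 5697 41.3%.
Sox6 peak 5699: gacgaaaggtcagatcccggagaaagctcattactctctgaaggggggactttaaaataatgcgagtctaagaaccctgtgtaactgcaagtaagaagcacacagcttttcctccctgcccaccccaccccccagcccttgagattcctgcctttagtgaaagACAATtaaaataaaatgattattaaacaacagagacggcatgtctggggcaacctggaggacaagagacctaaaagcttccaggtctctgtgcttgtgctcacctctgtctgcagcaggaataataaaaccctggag
Sox6 peak 5701: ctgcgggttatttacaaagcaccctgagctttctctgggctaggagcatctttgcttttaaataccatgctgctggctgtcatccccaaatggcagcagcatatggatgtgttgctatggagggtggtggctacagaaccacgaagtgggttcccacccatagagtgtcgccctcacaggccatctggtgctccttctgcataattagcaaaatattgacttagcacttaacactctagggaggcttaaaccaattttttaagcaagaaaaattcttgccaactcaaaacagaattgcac
Sox6 peak 5697: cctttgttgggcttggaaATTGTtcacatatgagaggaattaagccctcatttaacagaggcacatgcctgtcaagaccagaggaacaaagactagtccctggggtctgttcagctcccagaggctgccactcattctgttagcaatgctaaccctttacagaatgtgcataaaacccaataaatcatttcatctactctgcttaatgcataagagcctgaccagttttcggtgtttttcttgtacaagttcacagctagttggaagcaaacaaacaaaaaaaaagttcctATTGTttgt

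At Sox13, the widest is peak 270 (chr1:135078927-135079226) with 0 cores, the nearest peak 272 (chr1:135389368-135389667) with 0, and the one with most cores peak 269 (chr1:135055821-135056120) with 1. These windows were richer in G and C than the others printed, with 64.7, 59.3 and 56.3%.
Sox13 peak 270: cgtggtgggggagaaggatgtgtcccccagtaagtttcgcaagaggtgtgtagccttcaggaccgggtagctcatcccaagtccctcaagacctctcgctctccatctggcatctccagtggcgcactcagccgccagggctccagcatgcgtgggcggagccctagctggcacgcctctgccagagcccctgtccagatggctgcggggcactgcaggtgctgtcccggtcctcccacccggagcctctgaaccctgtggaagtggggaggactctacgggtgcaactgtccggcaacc
Sox13 peak 272: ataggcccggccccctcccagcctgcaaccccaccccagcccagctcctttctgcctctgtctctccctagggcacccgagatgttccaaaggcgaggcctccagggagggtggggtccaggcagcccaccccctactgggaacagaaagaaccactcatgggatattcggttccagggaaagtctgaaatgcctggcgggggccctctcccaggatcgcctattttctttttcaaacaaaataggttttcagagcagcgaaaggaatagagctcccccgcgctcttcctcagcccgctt
Sox13 peak 269: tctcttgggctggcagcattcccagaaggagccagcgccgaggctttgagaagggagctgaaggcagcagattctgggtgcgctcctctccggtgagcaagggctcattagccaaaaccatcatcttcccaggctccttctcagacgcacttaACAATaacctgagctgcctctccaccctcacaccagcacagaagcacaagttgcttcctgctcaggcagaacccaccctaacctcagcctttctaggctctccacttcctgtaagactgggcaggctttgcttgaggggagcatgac

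**Figure D1:**
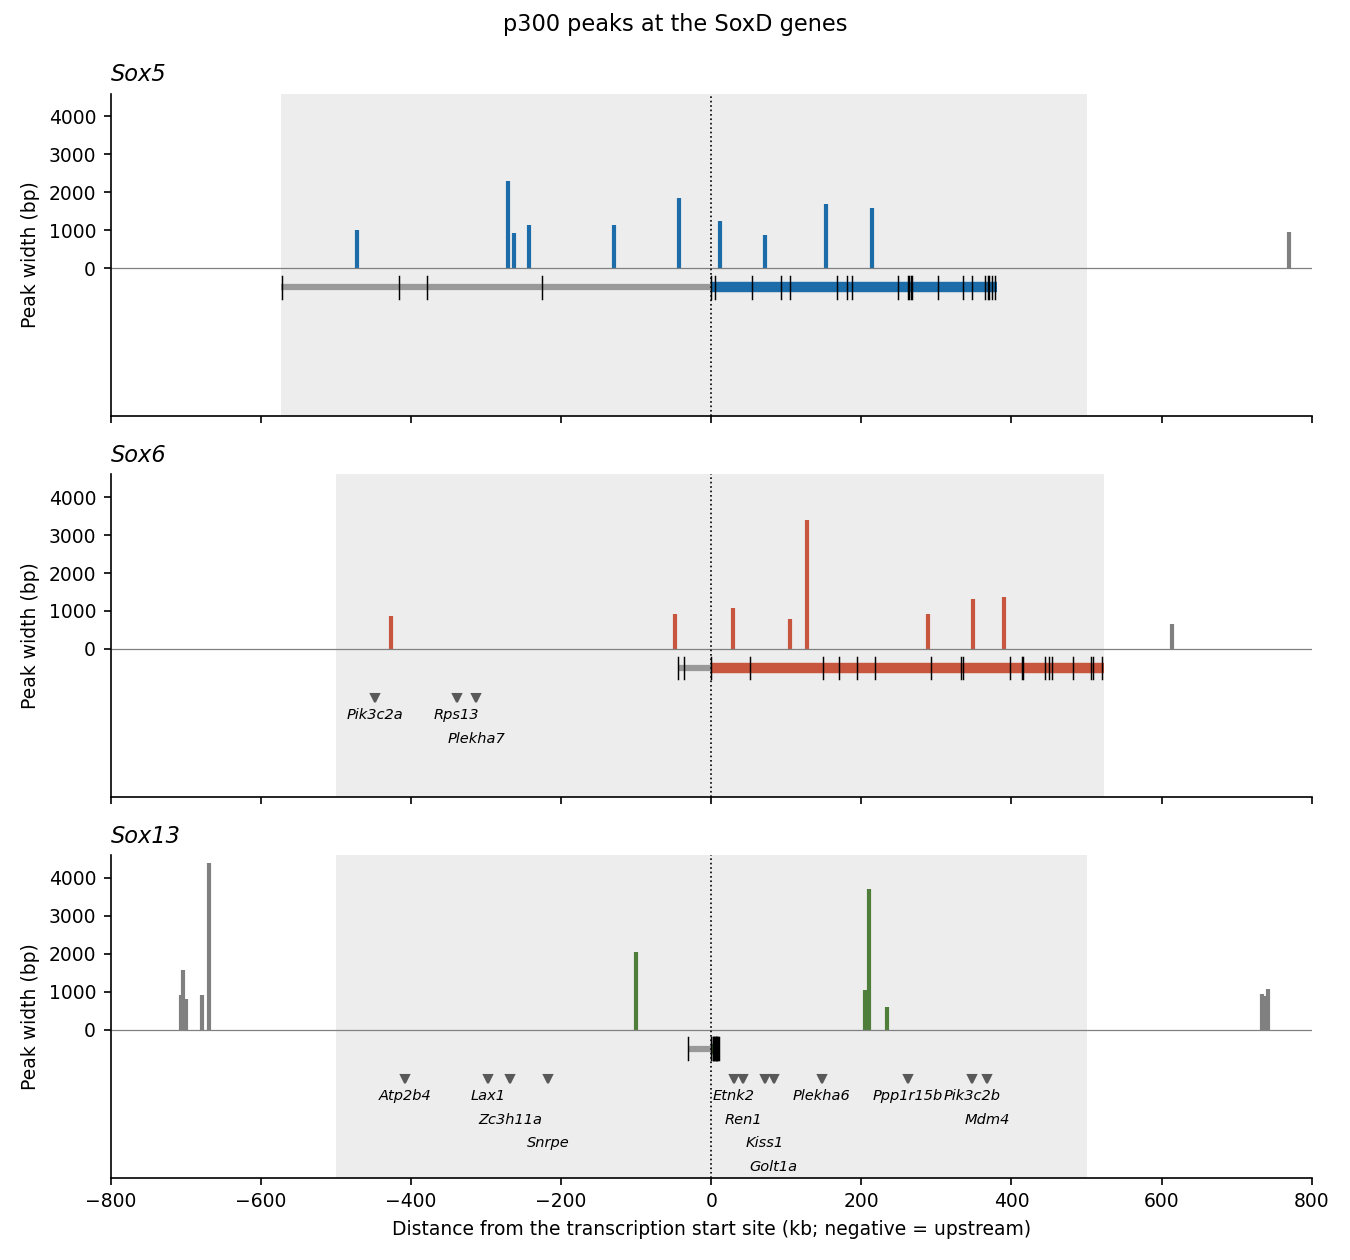
The p300 peaks around the start site of each SoxD gene, with distance in kb on the horizontal axis (negative is upstream) and peak width in bp as the height of each line. Grey shading is the window, coloured lines are peaks in it and grey lines peaks outside it. Below them are the coding transcript (coloured bar), the rest of the gene body (grey bar), exons (ticks) and the starts of named protein-coding neighbours (triangles). The 10 Sox5 peaks all lie along its gene body, 6 of the 8 Sox6 peaks do, and none of the 4 Sox13 peaks does.

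Sox5 (ENSMUSG00000041540) covers 953.6 kb of chromosome 6 (143776945 to 144730497) and is read from the minus strand. Its coding transcript of 15 exons, Sox5-001, starts at 144158000 and takes up the last 381.1 kb. The gene body runs on for 572.5 kb before that start, where 2 annotated transcripts of Sox5 covered each of the peaks found there. The window held 10 peaks where 2.78 would be expected from its 1.072 Mb, a fold of 3.60 (one-sided exact binomial test, p = 0.000621, Benjamini-Hochberg adjusted p = 0.0222 over 22367 protein-coding genes). Of all these genes, 914 passed the threshold of 0.05, or 4.09%, and 610 genes, or 2.73%, had a window with at least 10 peaks. The median window held 1 peak. Sox5 was the only SoxD gene called at this distance, and no other protein-coding gene starts in its window. The call depended on where the window was put. Centred on the most upstream annotated start, the window still held the 10 peaks but was longer, and the fold was 2.66 (one-sided exact binomial test, adjusted p = 0.0907).

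The 10 Sox5 peaks were spread along the gene body on both sides of the coding start. In the introns of the coding transcript lay 4 peaks, at 11.85 kb downstream of the start in intron 1 (peak 5486), 71.95 kb in intron 2 (peak 5485), 152.7 kb in intron 3 (peak 5484) and 214.4 kb in intron 6 (peak 5483). The remaining 6 lay upstream of that start, at 42.42 kb (peak 5487), 129.4 kb (peak 5488), 243.3 kb (peak 5489), 263 kb (peak 5490), 271.3 kb (peak 5491) and 472 kb (peak 5492). Per length the sides were alike, with 10.5 peaks per Mb of gene body on each. The tightest group is peaks 5489, 5490 and 5491, where 5490 and 5491 are 8.211 kb apart and 5489 follows at 19.75 kb. The longest stretch without a peak inside the set, 200.8 kb, separates this group from peak 5492. Past peak 5483 the remaining part of the coding transcript held no peak, and the median gap between neighbouring peaks was 61.77 kb.

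Peak 5491 (chromosome 6, 144428103 to 144430402) was the widest at Sox5, with 2300 bp, wider than or as wide as 97.9% of all peaks. It was also the only SoxD peak with annotated exon bases, 46 in all. Its midpoint lies 0.492 kb from the start of Gm15685, an annotated gene without a coding sequence, so that start falls inside the peak. Next in width came peak 5487 (144199491 to 144201348) with 1858 bp, peak 5484 (144004493 to 144006192) with 1700 bp and peak 5483 (143942775 to 143944370) with 1596 bp. All of these exceeded the upper quartile of the list, 1260 bp. Peak 5486 (144145537 to 144146766), the one nearest to the start site, had 1230 bp. The other Sox5 peaks measured between 878 bp, at peak 5485 (144085612 to 144086489), and 1125 bp, at peak 5488 (144286844 to 144287968). For 9 of the 10 peaks the start of Sox5 was the nearest protein-coding start, out to 271.3 kb away. The exception was peak 5492 (144629533 to 144630530), 367.3 kb from the start of Bcat1, a cytosolic aminotransferase of branched-chain amino acids. It also lies in 4933425H06Rik, an overlapping gene whose start is 8.644 kb away. Starts of genes that are not protein-coding were nearer than that of Sox5 to several other peaks as well. Besides peak 5491, Gm15685 was nearer to peaks 5489 and 5490 (28.45 and 8.703 kb). The start of 4933415D12Rik was nearer to peaks 5483 and 5484 (26.86 and 34.91 kb). Peak 5492 was also held by the windows of 2 other protein-coding genes, and the other 9 by none but that of Sox5.

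Sox5 is flanked by long stretches with few peaks. Upstream the next peak after 5492 was peak 5493 (145694500 to 145695504), 1065 kb further on and 1537 kb from the start site. Downstream the next after 5483 was peak 5482 (143387688 to 143388641), 555.4 kb away and 769.8 kb from the start site. The regulatory domain, which runs from 5 kb upstream to 1 kb downstream of the start and grows on each side until it meets that of another protein-coding gene or has gained 1 Mb, reached into that downstream side. It covered 1.838 Mb, from 143158000 to 144996331, and held 13 peaks, these 10 and peaks 5480, 5481 and 5482. This was 2.73 times the 4.76 expected, with an adjusted p of 0.0939 (one-sided exact binomial test), where 252 genes, or 1.13%, were called by their domain. With an extension of 500 kb the domain held 10 peaks and was called (fold 3.86, adjusted p = 0.0384, same exact test).

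Sox6 (ENSMUSG00000051910) covers 567.4 kb of chromosome 7 (122614858 to 123182258), also on the minus strand. Its coding transcript Sox6-201 has 17 exons, spans 523.7 kb and starts at 123138600. The window held 8 peaks where 2.65 would be expected, a fold of 3.02, and did not pass the threshold (one-sided exact binomial test, p = 0.00597, adjusted p = 0.0993). At least 8 peaks were found in the windows of 1356 genes, or 6.06%. The adjusted p stayed above the threshold under each alternative tried, and came nearest to it, at 0.0519, when the rate of peaks on chromosome 7 was used in the same exact test.

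Of the 8 Sox6 peaks, 6 lay in introns of the gene and 2 outside it. The intronic ones lay downstream of the start at 28.7 kb in intron 1 (peak 5701), 105 kb and 128.2 kb in intron 2 (peaks 5700 and 5699), 288.8 kb in intron 4 (peak 5698), and 349.2 and 390 kb in intron 7 (peaks 5697 and 5696). Sox6 had the nearest protein-coding start for these 6. Peak 5699 (chromosome 7, 123008654 to 123012049) stood out by its 3396 bp, at the 99.7th percentile of width. It lies 23.26 kb from peak 5700 (123033221 to 123034008), which with 788 bp is the narrowest at Sox6. The other intronic peaks were 5701 (123109371 to 123110437), 5698 (122849370 to 122850293), 5697 (122788771 to 122790091) and 5696 (122747946 to 122749313), with widths of 1067, 924, 1321 and 1368 bp. No intronic Sox6 peak held annotated exon bases.

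The peaks outside the gene body lay upstream of it, closer to other genes. Peak 5702 (123186670 to 123187595) was 48.53 kb from the Sox6 start and 11.64 kb from that of 1110006G14Rik. Peak 5703 (123564478 to 123565336) was 426.3 kb from the Sox6 start and lay in Pik3c2a, a phosphoinositide kinase of membrane traffic, 22.07 kb from its start. In all, 7 other protein-coding genes start in the Sox6 window, among them Plekha7 and the ribosomal protein gene Rps13, and each Sox6 peak was shared with between 3 and 8 other protein-coding windows. Outside the window, the nearest peaks were 5695, at 614 kb downstream, and 5704, at 1145 kb upstream. The Sox6 regulatory domain held the 6 intronic peaks and 2 others beyond the end of the gene, 5695 and 5694, a fold of 2.99 (one-sided exact binomial test, adjusted p = 0.294).

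Sox13 (ENSMUSG00000070643) is a far shorter gene of 42.08 kb on chromosome 1 (135278880 to 135320954), again on the minus strand. Its coding transcript Sox13-201 has 13 exons, is 9.62 kb long and starts at 135289847. The window held 4 peaks where 2.59 would be expected, a fold of 1.54 (one-sided exact binomial test, p = 0.262, adjusted p = 1). Windows with at least 4 peaks belonged to 5564 genes, or 24.9%. None of the 4 lay in the gene body, and 0 peaks in so short a gene allows a density of up to 71.3 peaks per Mb. The window is crowded with 13 other protein-coding starts, including those of Etnk2, Ren1, which encodes renin, and Kiss1, which encodes kisspeptin.

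The nearest peak to Sox13 was peak 272 (chromosome 1, 135388494 to 135390542), 99.67 kb upstream and 2049 bp wide. It was the only SoxD peak of this window for which Sox13 had the nearest protein-coding start, and the only one in the Sox13 regulatory domain (fold 1.58, one-sided exact binomial test, adjusted p = 1). The other 3 lay together on the downstream side, at 205 kb (peak 271, 135084287 to 135085321), 210.8 kb (peak 270, 135077220 to 135080934) and 233.9 kb (peak 269, 135055670 to 135056272). These were nearest to the start of Ppp1r15b, a regulatory subunit of the phosphatase that acts on the translation factor eIF2α, at 57.08, 51.36 and 28.25 kb. Peak 270 was the widest of all SoxD peaks with 3715 bp, at the 99.8th percentile, and peak 269 the narrowest with 603 bp, at the 2.49th. Each of the 4 was held by between 11 and 15 other protein-coding windows.

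Sox13 was the SoxD gene whose count depended most on the distance used. With 250 kb its window held the same 4 peaks, a fold of 3.09, and was not called (one-sided exact binomial test, adjusted p = 0.515). Outside the 500 kb window, the nearest peaks were peak 273 (135956623 to 135961010), 669 kb upstream and 4388 bp wide, and peak 268 (134555840 to 134556792), 733.5 kb downstream. Peak 273 lies between the protein-coding genes Fmod and Btg2. Peak 268 lies in the gene body of Nfasc, which held 4 peaks. The 500 kb window of Nfasc held 11 peaks and was itself called (one-sided exact binomial test, adjusted p = 0.00503). With 1 Mb on either side of its start the Sox13 window held 16 peaks, 3.09 times the expected number (one-sided exact binomial test, adjusted p = 0.00312). Sox13 was then called, among 1537 of all 22367 protein-coding genes, where 914 were called at 500 kb. In 100 kb bins of distance the added peaks out to 800 kb fell into groups, with 3 peaks between 600 and 700 kb and 2 between 700 and 800 kb upstream, and 3 between 700 and 800 kb downstream. Between these groups and the 4 counted peaks no bin held a peak. At 1 Mb Sox5 held 13 peaks, with an adjusted p of 0.0396, and Sox6 10, with an adjusted p of 0.269, in the same exact test.

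The order of peak density over the window was Sox5 with 9.32 peaks per Mb, Sox6 with 7.81 and Sox13 with 4. None of the neighbours in this order differed beyond counting error. The ratio of Sox5 to Sox6 was 1.19 (exact 95% interval 0.424 to 3.48), that of Sox6 to Sox13 was 1.95 (0.523 to 8.87) and that of Sox5 to Sox13 was 2.33 (0.672 to 10.2). In the gene body Sox5 had 10.5 and Sox6 10.6 peaks per Mb, a ratio of 0.992 (0.327 to 3.32). The adjusted p was 1 in each of the 6 comparisons made (two-sided exact binomial tests). With so few peaks the intervals are wide, and differences inside them could not be detected.

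The share of peaks inside the gene was set beside the share of the window that the gene takes up. At Sox5 the gene body held 100% of the peaks (Clopper-Pearson 95% interval 69.2 to 100%) and 88.9% of the bases of the window. At Sox6 it held 75% of the peaks (34.9 to 96.8%) and 55.4% of the bases, and density was 2.41 times that of the rest of the window (0.431 to 24.4, two-sided exact binomial test, adjusted p = 0.922 over 3 genes). At Sox13 it held 0% (0 to 60.2%) and 4.21% of the bases. The adjusted p of the same exact test was 0.922 at Sox5 and 1 at Sox13. With 10 of 10 peaks inside Sox5 an excess there could not have been detected, and with 0 of 4 inside Sox13 neither could a deficit.

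Long genes offer more room for intronic peaks, so Sox5 and Sox6 were set beside genes of similar length, from 0.8 times as long up to the reciprocal of that. Among 60 such genes for Sox5 the median was 2.29 peaks per Mb of gene body, and 3 were denser than Sox5. The 3 genes closest in density were Wwox, an oxidoreductase gene with 11 peaks (12 per Mb), Pcdh9, a protocadherin with 7 (8.02 per Mb), and Dab1, the adaptor of Reelin signalling, with 9 (8 per Mb). Among 139 genes for Sox6 the median was 2.14 peaks per Mb, 43 genes had no peak, and 10 were denser than Sox6. The closest were the adhesion molecule Dscam with 6 peaks (10.4 per Mb), the phosphodiesterase Pde10a with 5 (10.8 per Mb) and the splicing regulator Rbfox1 with 7 (11.6 per Mb). Both SoxD genes thus ranked in the upper part of their length class. Denser genes included Auts2 in the Sox5 class, with 29 peaks, and Cdkal1 in the Sox6 class, with 14. Of 2129 genes about as long as Sox13, 95.3% had no peak in the gene body either.

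**Figure D2:**
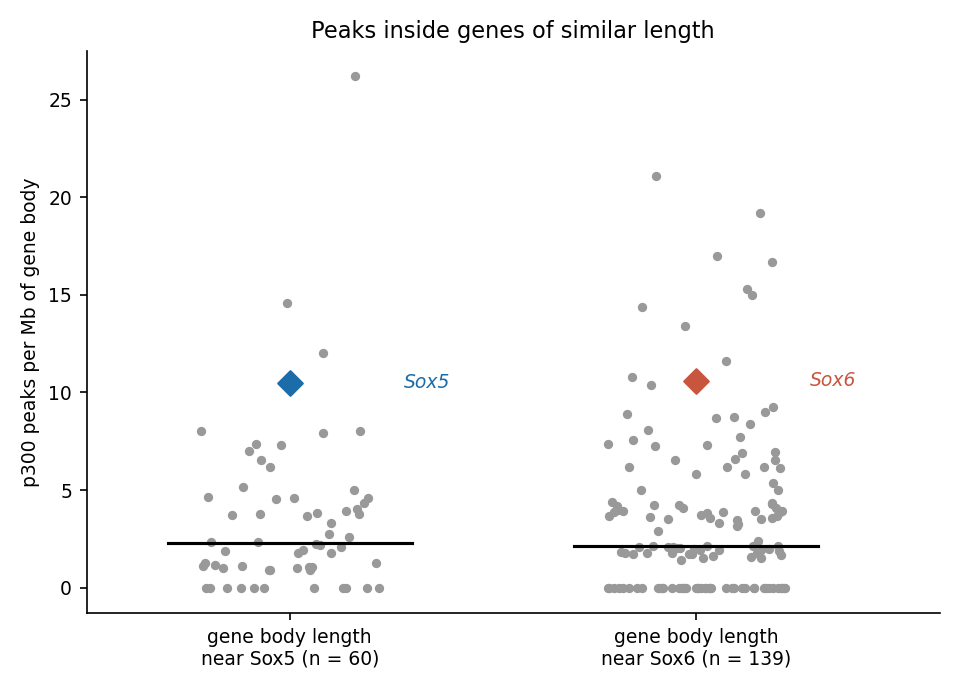
p300 peaks per Mb of gene body, on the vertical axis, for protein-coding genes of similar length to Sox5 (left, 60 genes) and Sox6 (right, 139 genes). Grey points are single genes, spread sideways for legibility, black lines are medians and diamonds are the SoxD genes. Sox5 at 10.5 and Sox6 at 10.6 lie well above medians of 2.29 and 2.14, with 3 and 10 genes above them.

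The peaks of the 3 loci overlapped in width, while in base composition those of Sox13 stood apart from the others. The 22 peaks had a median width of 1124 bp, against 1017 bp for all peaks, and 9 of them were above the upper quartile. The median was 1177 bp at Sox5 (878 to 2300), 996 bp at Sox6 (788 to 3396) and 1542 bp at Sox13 (603 to 3715). In GC content the 8 Sox6 peaks lay between 32.6 and 43.1%, all below the median of 45.2% over all peaks. The 10 Sox5 peaks lay between 39.5 and 48.8%, on both sides of that median and overlapping the Sox6 range, with a median of 43.5%. The 4 Sox13 peaks lay between 51.7 and 57.0%, all above the upper quartile of 50%, and above every Sox5 and Sox6 peak. Peaks of a locus share its sequence surroundings, so these values describe 3 loci and were not tested.

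**Figure D3:**
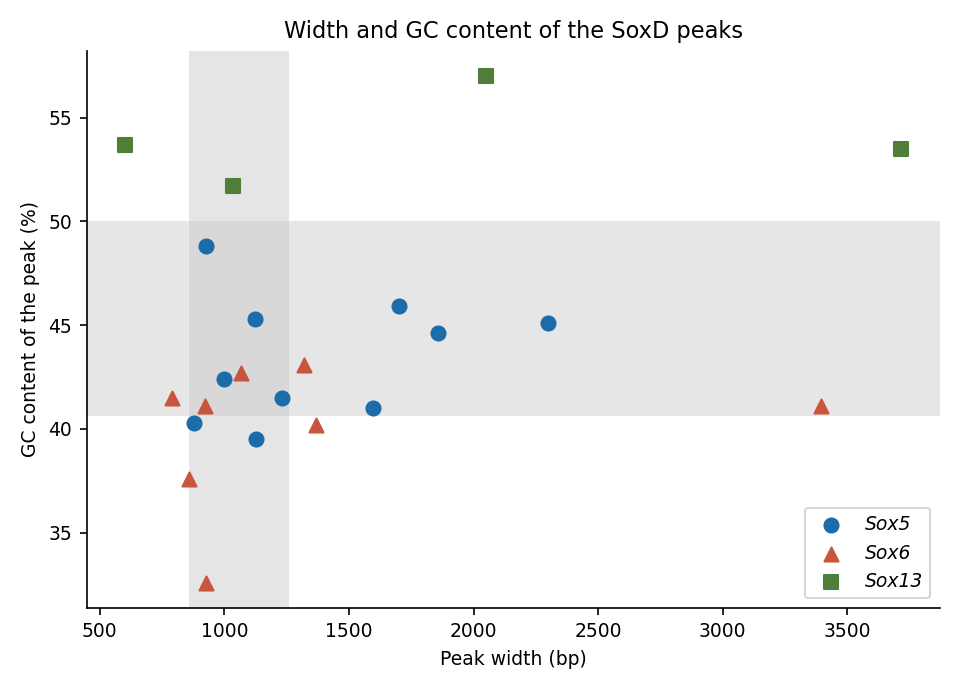
Width in bp (horizontal axis) and GC content in percent (vertical axis) of each of the 22 SoxD peaks. Points are single peaks, and grey bands run from the lower to the upper quartile of all 6629 peaks, 860 to 1260 bp and 40.6 to 50%. The 4 Sox13 peaks lie above the GC band, while the Sox5 and Sox6 peaks lie in or below it.

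Short motifs known for neural and Sox factors were counted on both strands in the middle 300 bases. The Sox core ACAAT, which Sox proteins of most groups can bind, was present in 13 of the 22 peaks, or 59.1% (Clopper-Pearson 95% interval 36.4 to 79.3%), and in 44.1% of all peaks. It was found in 6 of 10 peaks at Sox5, 6 of 8 at Sox6 and 1 of 4 at Sox13. The most copies, 3, were in peak 5487, 42.42 kb upstream of the Sox5 coding start, where the printed sequence shows 1 on the plus strand and 2 on the minus strand. The widest Sox6 peak, 5699, had 1 copy in its middle and 15 over its whole 3396 bp. Over whole peaks 20 of the 22, or 90.9%, held the core, as did 83.7% of all peaks. The motif is short and rich in A and T, and the AT-rich Sox6 peaks and GC-rich Sox13 peaks differ in the same sense as their counts. The part of base composition in this was not tested.

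The E-box CAGCTG, a site of basic helix-loop-helix factors, was in 5 of the 22 peaks, or 22.7% (7.82 to 45.4%), against 31.0% of all peaks. It was present in 4 Sox5 peaks, among them the widest, 5491, in 0 Sox6 peaks and in 1 Sox13 peak. The E-box CAGATG, the form of the Neurod and Neurog factors, was in 9 peaks, or 40.9% (20.7 to 63.6%), against 45.7%, with 3 at Sox5, 5 at Sox6 and 1 at Sox13. Peak 5696, at 390 kb in intron 7 of Sox6, had 3 copies. The homeodomain motif TAATTA was in 4 peaks, or 18.2% (5.19 to 40.3%), against 23.5%, and the single Nfi site TTGGC in 12, or 54.5% (32.2 to 75.6%), against 58.4%. For each of these 5 motifs the interval of the SoxD share held the share of all peaks. The intervals treat the peaks as separate draws, although peaks of a locus share its sequence surroundings. A difference from all peaks was therefore not tested. The Nfi dimer, a pair of such sites facing each other across 5 bases, was in 0 SoxD peaks (0 to 15.4%) and in 13 of all peaks. Motifs of other factors were not searched, and a match does not show that a factor binds there. Each Nfi dimer holds the single Nfi site by its definition, and matches of the other motifs may overlap at their ends.

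**Figure D4:**
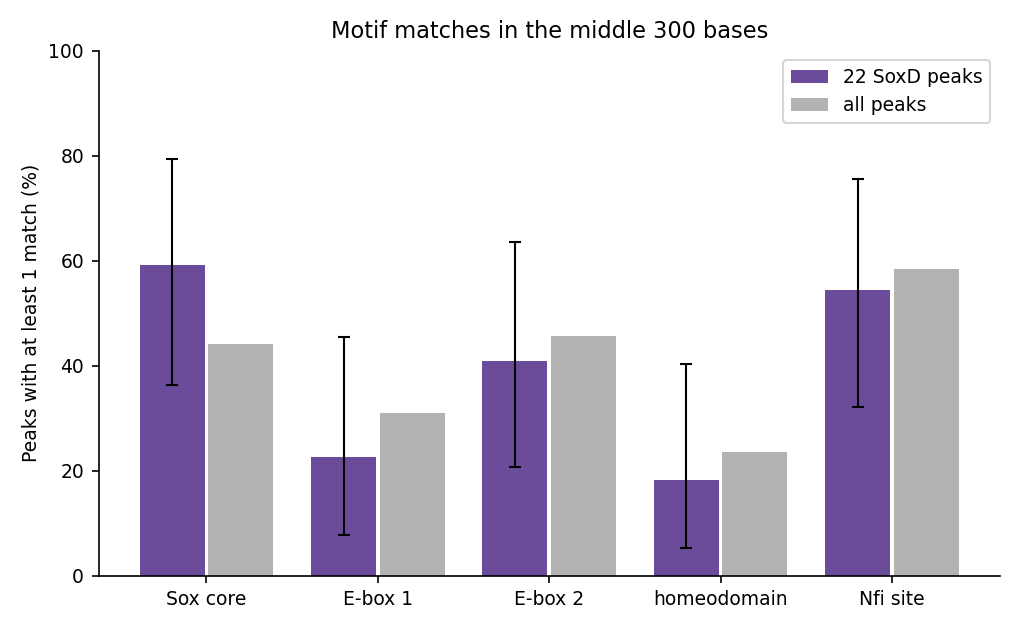
Percent of peaks with at least 1 match in the middle 300 bases, on the vertical axis, for the 22 SoxD peaks (purple, bars of error are Clopper-Pearson 95% intervals) and for all 6629 peaks (grey). E-box 1 is CAGCTG and E-box 2 is CAGATG. The grey bar falls inside the interval of the purple bar for each motif, with the Sox core at 59.1 against 44.1%. The intervals treat peaks of the same locus as separate draws, and a difference was not tested.

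Within the Sox family, Sox5 and Sox6 followed Sox4, Sox11, Sox2 and Sox12 by fold among 19 genes. Sox genes are grouped by their HMG box, and 20 were listed, of which Sox1 was not analysed here. Of the 19, 5 were called, beside 4.09% of all protein-coding genes. The SoxC genes, which act in newly born neurons, were all among them, Sox4 with 19 peaks (fold 7.33), Sox11 with 18 (6.95) and Sox12 with 10 (3.86). The others were Sox2, a SoxB gene of neural progenitors, with 13 (5.02), and Sox5. Directly below Sox6 with its 8 peaks came Sox7, a SoxF gene of blood vessels, and Sox9, the SoxE gene of early glia and cartilage, with 6 each (2.32). Sox13 shared its count of 4 with Sox21. Outside SoxD, 4 of 16 Sox genes were called, again beside 4.09% of all genes, and their median fold was 1.16, against a median of 0.402 over all protein-coding windows. A fold difference between Sox5 and any of its neighbours in this order was not tested, and Sox4 is annotated under 2 identifiers.

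**Figure D5:**
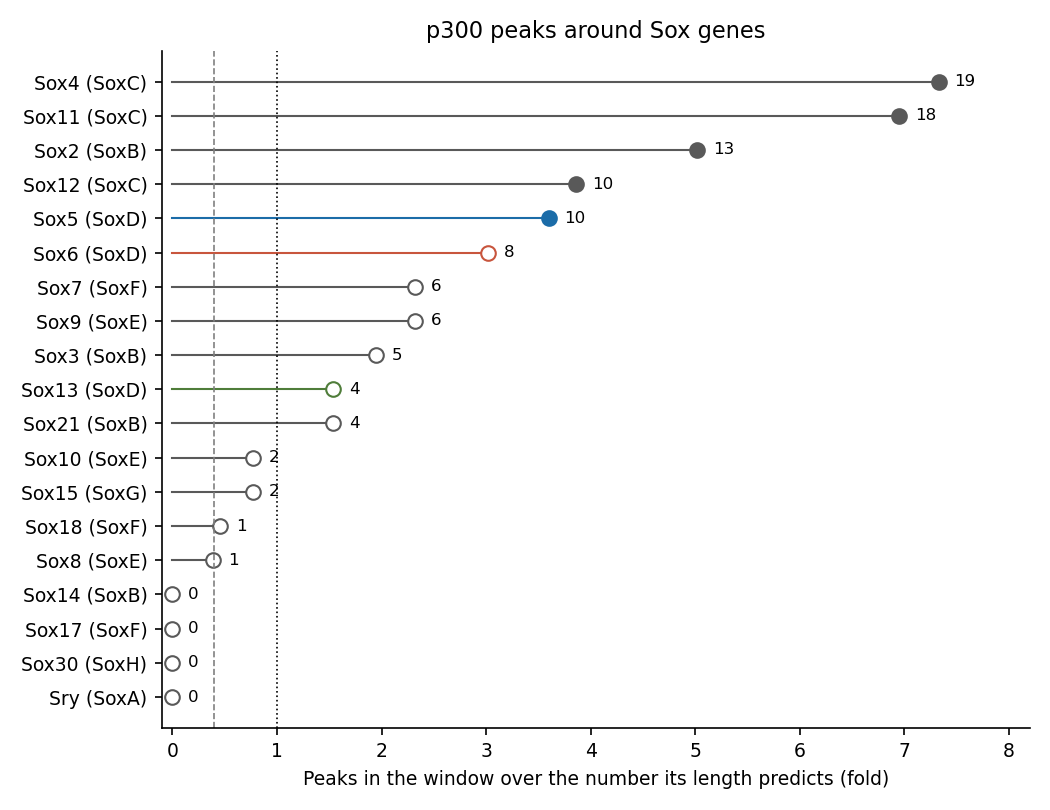
Fold of p300 peaks in the window over the number its length predicts (horizontal axis) for 19 Sox genes, with the number of peaks beside each point. Filled points passed an adjusted p of 0.05, the dotted line is a fold of 1 and the dashed line the median over all protein-coding genes, 0.402. Sox5 is filled at 3.60, while Sox6 at 3.02 and Sox13 at 1.54 are open.

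Genes that SoxD factors are known to work with were read from the same test, in which 4.09% of all protein-coding genes were called. These lists are short and are given as counts. Of the projection neuron genes, Fezf2, the determinant of subcortical projection neurons, was called with 10 peaks (fold 3.86, one-sided exact binomial test, adjusted p = 0.0131). None of these peaks lay in the Fezf2 gene body, and peaks counted in a window can lie up to 500 kb from the start site. The call therefore describes the surroundings of Fezf2 and does not show peaks close to it. Tbr1 and Bcl11b, which mark corticothalamic and subcerebral neurons, had 7 and 6 peaks and were not called. None of the 3 interneuron genes Lhx6, Sst and Nkx2-1 was called, with 3, 1 and 1 peaks. Of the oligodendrocyte genes Olig1 and Olig2, which are neighbours with overlapping windows, were called with 11 each, and Pdgfra with 5 and Nkx2-2 with 4 were not. Ctbp2, a corepressor that binds Sox6, was called with 9 peaks (fold 3.47, adjusted p = 0.0354 in the same exact test), while Ctbp1 with 2 and Hdac1 with 4 were not. Of 6 cartilage genes that Sox5 and Sox6 act on with Sox9, Matn1 alone was called, with 12 peaks of which none lay in the gene body, and Col2a1 had 1. The medians of these lists ran from a fold of 0.386 for the interneuron genes to 3.09 for the oligodendrocyte genes. The overlapping windows of Olig1 and Olig2 both enter the latter median.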

How the data were processed

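The p300 library and the input library, 1 of each, were sequenced in reads of 36 bp. The authors' aligner was ELAND and the assembly mm9, and a read counted if it had a single placement, in which up to 2 mismatches were allowed. MACS, given as 1.4 in the submitters' processing notes, called p300 peaks over input at a fixed read shift of 100 bp. A later filter by the authors took out doubtful placements and, by UCSC knownGene, promoter-proximal peaks (2.5 kb) and exonic ones. By GENCODE 1 SoxD peak still held exon bases. The deposited values are peak coordinates with a number and no score, so width alone could serve to make the list stricter, and depth per peak is unknown.

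Sequence came from NCBIM37, the same assembly as mm9, and genes from GENCODE vM1. 0 peaks ran past a chromosome end. Midpoints in each window or regulatory domain were tested by a one-sided exact binomial test given the assembled bases it covers, and p-values were adjusted by Benjamini-Hochberg over 22367 protein-coding genes. Ratios between genes used two-sided exact binomial tests. The named genes were the Sox genes, genes of 5 lists on SoxD function, the genes nearest to SoxD peaks and the 3 genes closest in gene body density among those of similar length. Printed peaks were the widest, the nearest to the start and that with most Sox cores. Part of 1 list is not reported here. The members and lists were chosen with earlier results of these data known. Alternatives changed the distance, start site, peaks counted, overlap, sequence counted, rate, domain rule and motif window. Python 3.11.15, numpy 2.4.6, scipy 1.17.1, pysam 0.24.0 and matplotlib 3.10.9 were used, and the tests were tried on simulated peak sets. The input library and curated domains were not used here.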

Additional observations from a re-analysis of the deposited data

How the results depend on the processing

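Of 76 alternative values, 60 kept their direction and side of the threshold or, for counts of genes, stayed within 1.5 times. With 250 kb from the start 468 genes were called, with 1 Mb 1537, with peaks of median width or more 459 and with peaks under 5 kb apart joined 515, in place of 914. Fewer peaks, or shorter or longer windows, enter these tests by construction. With 1 Mb the Sox13 fold was 3.09, and the density ratio to Sox13 turned to 0.813 for Sox5 and to 0.625 for Sox6, both with an adjusted p of 1 in exact tests. With 250 kb the Sox13 fold was also 3.09, and the density ratio to Sox13 was 1.31 for Sox5 and 1.13 for Sox6. From the most upstream start the Sox5 fold was 2.66. Among wide peaks the gene body ratio of Sox5 to Sox6 was 1.04. The Sox5 domain was called at a fold of 5.96, with 7 peaks, when drawn between all annotated genes and at 3.86 with an extension of 500 kb. Over whole peaks the shares with a motif rose to 90.9% for ACAAT, 45.5% for CAGCTG, 68.2% for CAGATG, 54.5% for TAATTA and 86.4% for TTGGC, since more sequence was searched. No paired analysis was possible because there is 1 p300 library, and for that reason no replicate could be left out. The number of reads behind a peak is unknown.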
